A study of Mus musculus with 30 samples.

Results

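Dyneins and kinesins are the motor proteins that walk along microtubules, and the genes described here are those of both families whose transcripts were counted in mouse sperm. The members were the features with symbols starting Dnah, Dnai, Dnal, Dnaaf, Dync, Dynl or Kif followed by the family's usual number or letter. Of the 16242 features in the table of sperm collected 24 h after the last injection, 67 met this rule. Of the 3082 features in the table of sperm collected at 46 days, 29 met it, and all 29 were also among the 67. No gene of the axonemal intermediate chain series (Dnai) was found by the rule.

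Axonemal dyneins are the rows of arms on the outer doublet microtubules of the sperm tail, and their ATP-driven stepping makes the tail bend. The outer arms set the beat frequency and the inner arms shape the waveform, and the Dnaaf proteins fold and assemble both kinds of arm in the cytoplasm before they enter the tail. Cytoplasmic dyneins and kinesins carry cargo in opposite directions along microtubules, build the tail by intraflagellar transport, and form the spindle and the manchette while germ cells divide and elongate.

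Male mice aged 3 months had received intraperitoneal tesaglitazar, an agonist of the nuclear receptors PPAR alpha and PPAR gamma, at 10 µg per kg (TESA), or the vehicle, DMSO in saline (CTRL). Injections were given 2 times a week for 4 weeks, and sperm were taken by swim-up from the cauda epididymis, with lysis of somatic cells. The 24 h groups held 4 TESA and 4 CTRL libraries of polyadenylated RNA, and the 46-day groups held 7 TESA and 7 CTRL libraries of total RNA depleted of ribosomal RNA. The comparison of TESA with CTRL asked whether the drug was followed by a different sperm RNA content shortly after treatment and after a further round of sperm production.

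The strain was not used here, and libraries were treated as separate samples, so p-values measure only the spread between these samples, which may be partly technical. Values are estimated counts scaled to CPM (counts per 1e6 counts) with TMM factors, and the 2 tables were normalized separately. Library totals ran from 15337589 to 27709990 estimated counts at 24 h, of which 18055 to 47840 fell on the members. At 46 days the totals ran from 4538102 to 13513816, and the 5 most abundant features took most of them in every library except CTRL 14. Outside those 5 features the counts ran from 158820 in TESA 2 to 7119414 in CTRL 14, and the members' counts from 790 to 76533. The precision of a 46-day value therefore differed widely between libraries, and 6 of the 29 members exceeded 20 counts in TESA 2.

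Markers of late spermatids and sperm checked the tissue. All 15 were found at 24 h, with Odf1, a protein of the outer dense fibers, the most abundant. Their summed level was 9738, 5239, 10639 and 6680 CPM in TESA 1, 3, 5 and 7, and 8461, 3491, 9040 and 12033 CPM in CTRL 2, 4, 6 and 8. CTRL 4 and TESA 3 had the lowest sums, and the groups overlapped. At 46 days 13 of the 15 were found, Prm2 was the most abundant, and the sum ran from 367 to 931 CPM. Markers of other cells were also found at 24 h. All 9 leukocyte markers were found, summing to 1197 to 2568 CPM, and their most abundant gene was Cd52, which the epididymal epithelium also expresses. Of 14 epididymal markers 7 were found (1185 to 2950 CPM, led by Spink8), of 6 blood markers 4 (53.5 to 269.9 CPM, led by Hba-a2), and of 5 smooth muscle markers 5 (11.9 to 77.3 CPM, led by Tagln). Germ cells before meiosis gave 4 of 7 markers (33.8 to 82.4 CPM, led by Uchl1), spermatocytes 2 of 7 (0.617 to 4.21 CPM, led by Dmc1), and dividing cells 5 of 8 (2.01 to 14.2 CPM, led by Mki67). The synaptonemal complex genes Sycp1, Sycp2 and Sycp3 gave no value. Of 8 markers listed for multiciliated cells of the efferent ducts 5 were found (27.3 to 65.0 CPM, led by Deup1), and Mcidas and Gmnc gave no value. Foxj1 and Tppp3 of this list may also be in germ cells, and the source of the Deup1 RNA was not tested. At 46 days the leukocyte, epididymal, blood, smooth muscle, spermatocyte and dividing cell lists gave 0 genes, while Uchl1 (12.3 to 26.5 CPM) and Deup1 (5.93 to 13.6 CPM) were found. Only 3082 features had passed the filter at 46 days, against 16242 at 24 h. A missing marker therefore had no value there, which is not a measured 0, and absence of such cells cannot be read from it. No marker in any list had an edgeR unadjusted p under 0.05 in either table. At 24 h all 5 smooth muscle markers were nevertheless above 0 (median log2 fold change 0.77, sum 41.0 ± 24.3 CPM in TESA and 25.6 ± 10.8 CPM in CTRL, mean ± SD). All 4 blood markers were below 0 (median -0.35), as were 2 of the 3 markers tested for germ cells before meiosis (median -0.40). Fewer cells of a type and less RNA per cell cannot be told apart in these libraries, and the markers' part in the results below was not tested.

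Some libraries stood apart in the members' levels. At 24 h, TESA 1 alone had the lowest level of the 8 libraries for 16 of the 62 members tested (25.8%, against 12.0% of all genes tested) and the highest for 5 (8.06% against 10.9%). It had 0 counts for 10 tested members (16.1% against 5.43%). CTRL 2 had the highest level for 15 members (24.2% against 16.6%), among them Kif1a at 360 CPM, where the other 7 libraries had 102 to 161 CPM. TESA 3 and CTRL 4 were together the 2 highest libraries for 10 of the 62 members (16.1%, against 10.1% of all genes tested), and these included Dync1h1, Kif1b, Kif5b, Kif13a, Kif13b, Kif16b and Kif1c. The same 2 libraries were the lowest for 6 members (9.68% against 9.58%), among them Kif2c, Dynll1 and Dynll2. At 46 days, TESA 2, which had the fewest counts, was the lowest of 14 libraries for 7 of the 27 members tested (25.9%, against 25.6% of all genes tested) and the highest for 2 (7.41% against 9.55%). TESA 12 was the lowest for 7 others (25.9% against 27.0%) and the highest for 3 (11.1% against 26.7%), so both libraries stood apart over all genes and not in the members alone.

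At 24 h, no member passed the test, and under TMM scaling, but not with library totals, most fitted fold changes lay below 0. After a filter on low counts, 62 members were tested among 13029 mRNAs and long noncoding RNAs. The mRNAs Kif20a, Kif3c, Kif6 and Kif7 had too few counts, and Dynlt1-ps1, a pseudogene, was not in the tested class. In edgeR (quasi-likelihood test, two-sided, Benjamini-Hochberg), 0 of the 62 had an adjusted p under 0.05 (0% of all genes tested), and the adjusted p of every member was 1.00. The edgeR exact test, DESeq2 and limma voom also called 0 members. At an unadjusted p under 0.05, 2 members were lower in TESA (1.42% of all genes tested were lower) and 0 were higher (0.982% of all were higher). Both were copies of Dnah7. Under the edgeR exact test and DESeq2 the count of lower members was also 2 (1.39% and 1.78% of all genes were lower). Under limma voom it was 4 (Dnah7b, Dnah7c, Dync2h1 and Kif19a), where 4.09% of all genes were lower.

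The fitted log2 fold change was below 0 for 47 of the 62 members (75.8%), against 50.9% of all genes tested, and its median was -0.23, against -0.01. It was below 0 for 27 of 34 dynein genes, counting the 4 Dnaaf assembly factors (median -0.31), and for 20 of 27 kinesin genes (median -0.16). How the libraries were scaled mattered for this direction. When library totals replaced the TMM factors, the median of all genes moved to 0.21 and that of the members to 0.03, with 29 of 62 below 0, so the members lay 0.18 below all genes where they had lain 0.22 below them. With 1 library left out at a time, the members' median ran from -0.31 to -0.14. Among the 44 members with counts in every library, 33 were below 0, with a median of -0.20. The 95% interval of the fold change lay within a doubling and a halving for 13 of the 62 members, so larger changes were not excluded by the interval for the other members.

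**Figure D1:**
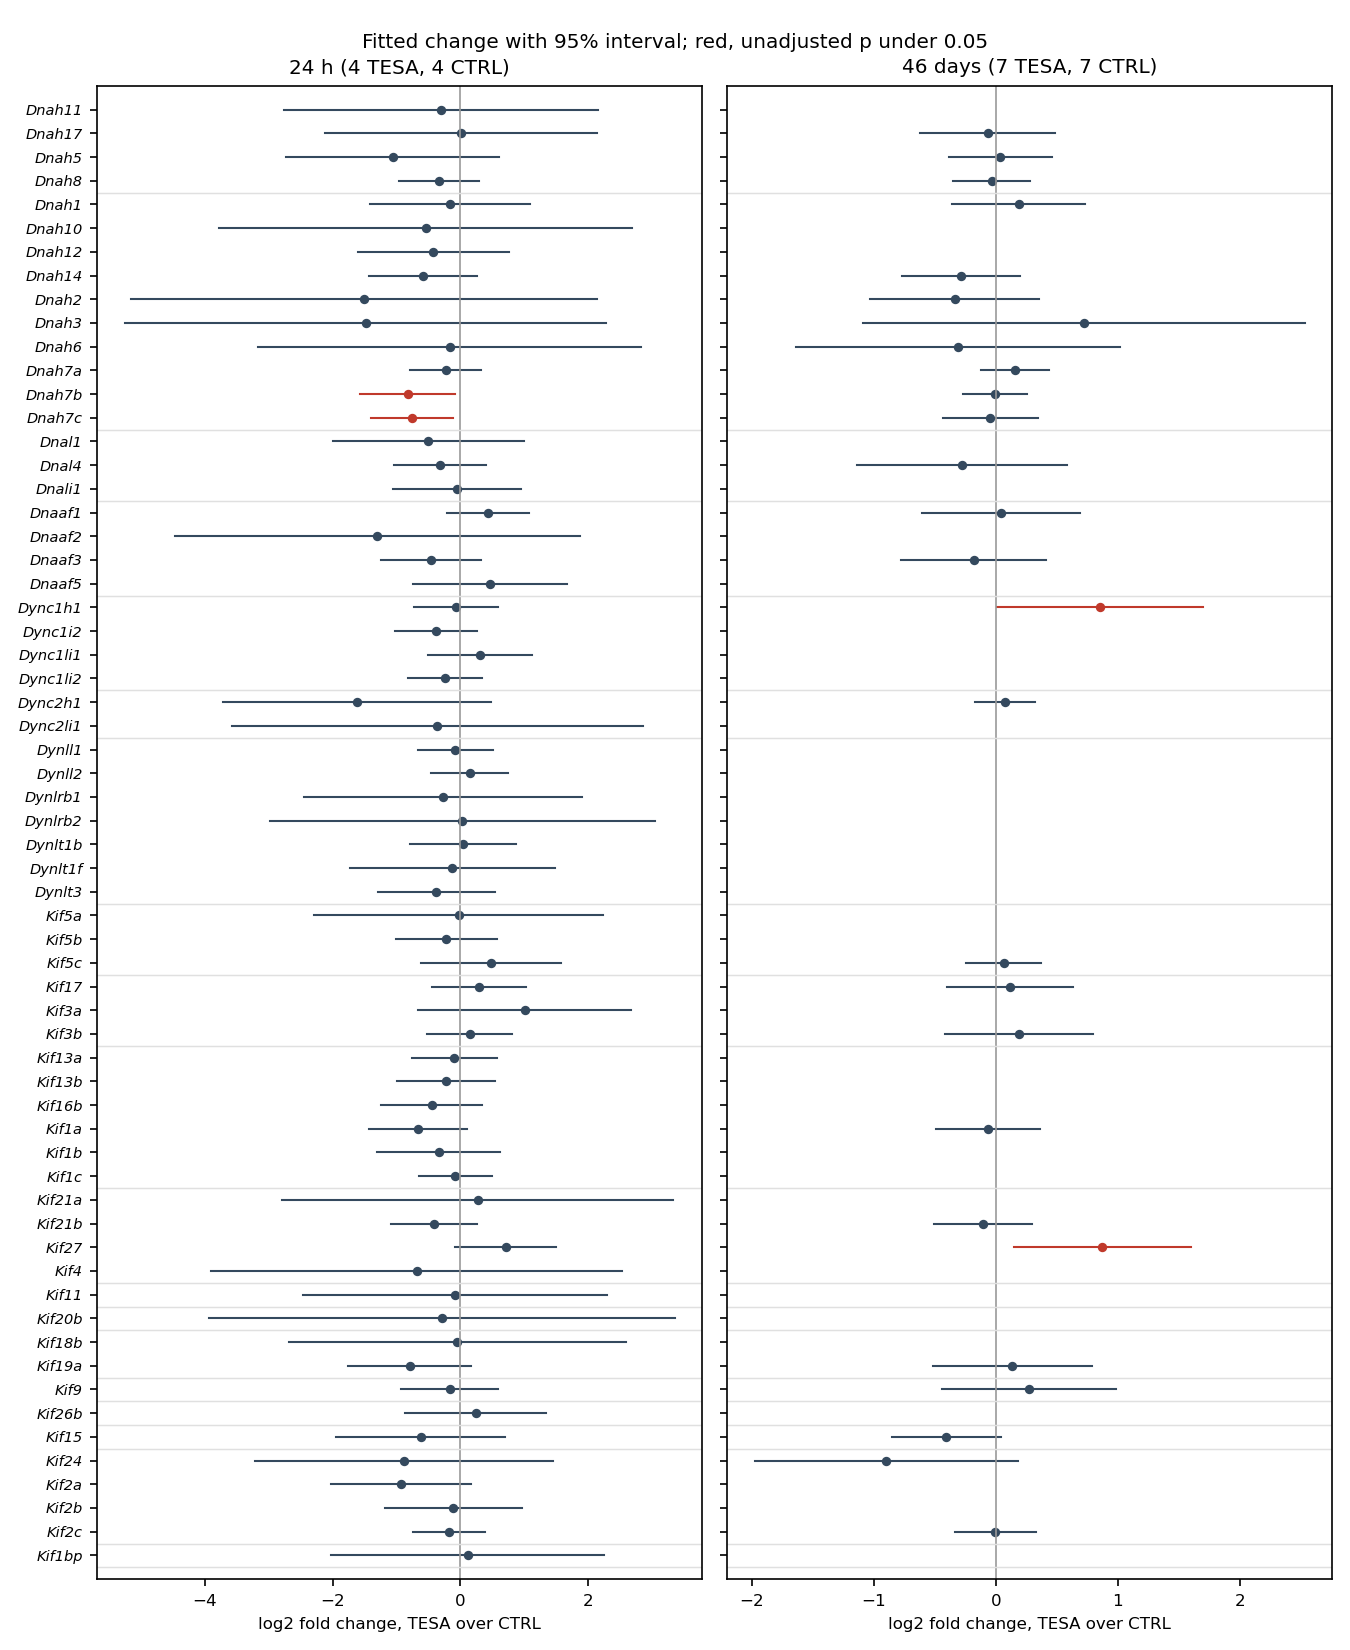
Fitted log2 fold change of TESA over CTRL (points) with its 95% interval (lines) for the members tested at 24 h (left, 62 genes) and at 46 days (right, 27 genes), ordered from axonemal dyneins at the top to cytoplasmic dyneins, light chains and kinesins. Red marks the genes with an unadjusted p under 0.05, which were Dnah7b and Dnah7c at 24 h and Dync1h1 and Kif27 at 46 days, and none passed the adjusted threshold.

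The inner arm heavy chains were the role with the most members tested. All 10 had a fold change below 0 at 24 h, from -1.51 to -0.16 with a median of -0.56. Kinesin-3, kinesin-13 and the axonemal light chains, with fewer members, also had every tested gene below 0. Under some other settings Dnah1, Dnah2 and Dnah6 lay above 0, up to 0.13, 1.60 and 1.06. The summed level of the inner arm chains was 52.9, 59.4, 64.4 and 62.5 CPM in TESA 1, 3, 5 and 7, and 113, 90.5, 65.3 and 92.2 CPM in CTRL 2, 4, 6 and 8. Each TESA library was below each CTRL library, although TESA 5 and CTRL 6 differed by about 1 CPM. With library totals the sums overlapped, at 43.4 to 98.3 CPM in TESA and 69.5 to 106 CPM in CTRL. As a share of all members' counts, which does not depend on the scaling, the inner arm chains made up 4.30% to 5.69% in TESA and 5.40% to 7.19% in CTRL, again overlapping.

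Dnah7a, Dnah7b and Dnah7c are related copies of an inner arm heavy chain gene on chromosome 1, and reads shared between copies can be split unevenly by the counting. Dnah7c (chr1:46425428-46807477) had 6.97, 8.95, 8.87 and 8.08 CPM in TESA 1, 3, 5 and 7. In CTRL 2, 4, 6 and 8 it had 16.5, 9.87, 10.8 and 18.5 CPM. The 4 TESA libraries were below the 4 CTRL libraries without overlap, with CTRL 2 and CTRL 8 the highest. Its fold change was -0.76 (SE 0.29, edgeR unadjusted p = 0.0252, adjusted p = 1.00). Without CTRL 8 it was -0.59 with an edgeR unadjusted p of 0.0979, and the p was also over 0.05 without TESA 1 (0.0632), CTRL 2 (0.0621) or TESA 7 (0.0522).

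Dnah7b (chr1:46066071-46373551) had 8.26, 8.69, 3.94 and 6.61 CPM in TESA 1, 3, 5 and 7. In CTRL 2, 4, 6 and 8 it had 8.19, 14.2, 13.7 and 12.6 CPM. CTRL 2 lay within the TESA values, and the other 3 CTRL libraries were above all TESA libraries. Its fold change was -0.83 (SE 0.34, edgeR unadjusted p = 0.0337, adjusted p = 1.00). The edgeR unadjusted p was over 0.05 without CTRL 4 (0.0842), TESA 5 (0.0771), CTRL 6 (0.0797), TESA 7 (0.0680) or CTRL 8 (0.0667). Under library totals the fold changes were -0.66 for Dnah7b (edgeR unadjusted p = 0.154) and -0.55 for Dnah7c (edgeR unadjusted p = 0.215).

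Dnah7a (chr1:53396995-53707301) overlapped fully between the groups, at 17.5 to 23.5 CPM in TESA and 17.2 to 29.1 CPM in CTRL, with a fold change of -0.23 (SE 0.25). Summing the 3 copies, a choice made after their values were seen, gave 32.7, 36.5, 36.3 and 32.5 CPM in TESA 1, 3, 5 and 7. The sums in CTRL 2, 4, 6 and 8 were 53.7, 41.9, 41.8 and 57.9 CPM. Under TMM all TESA sums were below all CTRL sums, and the fold change of the sum was -0.50 (SE 0.19, edgeR unadjusted p = 0.0277, adjusted p = 1.00). With library totals the sums overlapped, and TESA 7 lay above CTRL 2, 4 and 6. Count ratios between the copies were likewise looked at after the values were seen. Dnah7a to Dnah7c was 2.11 to 2.64 in TESA and 1.45 to 1.80 in CTRL at 24 h, and 1.59 to 3.00 and 1.03 to 2.83 at 46 days. Dnah7a to Dnah7b overlapped at both times, at 2.11 to 5.95 in TESA and 1.25 to 3.55 in CTRL at 24 h, and with medians of 1.78 and 1.55 at 46 days.

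Other inner arm heavy chains were low and uneven. Dnah14 had 3.45, 7.14, 4.29 and 3.92 CPM in TESA 1, 3, 5 and 7 and 5.18, 8.98, 5.53 and 8.42 CPM in CTRL 2, 4, 6 and 8. TESA 3 lay inside the CTRL values, and the fold change was -0.58 (SE 0.38, edgeR unadjusted p = 0.157). Dnah1, a chain needed for a regular sperm tail, had 1.41 to 7.92 CPM over all 8 libraries and a fold change of -0.16 (SE 0.56). Dnah2 had 0 counts in TESA 1, TESA 3 and CTRL 8 and 4.75 to 11.8 CPM in the other libraries. Dnah3 had 0 counts in TESA 3, CTRL 6 and TESA 7 and 4.13 to 14.2 CPM elsewhere. Dnah6 had 0 counts in TESA 5 and CTRL 6. The standard errors of these 3 genes were 1.34 to 1.69.

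Of the outer arm heavy chains, 3 of 4 were below 0 at 24 h. Dnah8, a heavy chain of the sperm tail's outer arm, was the most abundant, at 32.1, 39.7, 27.7 and 20.2 CPM in TESA 1, 3, 5 and 7. CTRL 2, 4, 6 and 8 had 42.2, 47.2, 23.4 and 38.3 CPM. CTRL 6 was below 3 TESA libraries and CTRL 8 below TESA 3, and the fold change was -0.34 (SE 0.28, edgeR unadjusted p = 0.265). Dnah17, its partner in the sperm tail, had 0 counts in TESA 1 but 11.1 to 20.9 CPM in the other TESA libraries and 7.52 to 14.1 CPM in CTRL, and its fold change was 0.01 (SE 0.96). Dnah5, the outer arm heavy chain best known from respiratory cilia, had 0.482 to 1.17 CPM in TESA and 0.809 to 2.26 CPM in CTRL, with a fold change of -1.06 (SE 0.75, edgeR unadjusted p = 0.188).

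The 3 axonemal light chains were all below 0. Dnal4 had 10.9 to 22.5 CPM in TESA and 16.8 to 28.7 CPM in CTRL, with a fold change of -0.32 (SE 0.32, edgeR unadjusted p = 0.340), and Dnali1, an inner arm light chain, had -0.05 (SE 0.45). Over the settings tried Dnal4 ran from -0.50 to -0.10, and Dnali1 from -0.41 to 0.16. The assembly factors divided evenly, with 2 of 4 below 0. Dnaaf1 had 19.8, 21.3, 16.0 and 16.3 CPM in TESA 1, 3, 5 and 7 and 13.4, 8.33, 12.7 and 19.8 CPM in CTRL 2, 4, 6 and 8. CTRL 8 lay among the TESA values, and the fold change was 0.44 (SE 0.29, edgeR unadjusted p = 0.161), or 0.68 without CTRL 8 (edgeR unadjusted p = 0.0428). Dnaaf3 had 10.4 to 16.2 CPM in TESA and 10.7 to 30.5 CPM in CTRL, where CTRL 2 was the highest, with a fold change of -0.46 (SE 0.35). Over the settings tried this fold change ran from -0.62 to -0.03.

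Dync2h1 (chr9:6928550-7178306), the motor of the dynein that returns cargo from the tip of a growing cilium or tail, showed the widest gap between the groups at 24 h. It had 0, 24.9, 20.5 and 9.02 CPM in TESA 1, 3, 5 and 7, and 46.1, 42.2, 35.7 and 42.7 CPM in CTRL 2, 4, 6 and 8. Every TESA library was below every CTRL library, and TESA 1 had 0 counts where the lowest of the other libraries had 393. The fold change was -1.61 (SE 0.94) and did not pass the test (edgeR unadjusted p = 0.117, adjusted p = 1.00). Over the settings tried it ran from -3.03 to -1.19, and limma voom gave an unadjusted p under 0.05. Without TESA 1 the fold change was -1.19 (SE 0.35) with an edgeR unadjusted p of 0.00779, and the adjusted p was still 1.00. The groups were also without overlap under library totals, where the fold change was -1.39 (SE 0.95). The other cytoplasmic dynein 2 member, Dync2li1, was near the count limit at 0 to 2.16 CPM.

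Groups without overlap were counted for all members. Dync2h1, Dnah7c and Kif19a were lower in every TESA than in every CTRL library, which is 3 of 62 members (4.84%) against 1.67% of all genes tested, and 0 members were higher in every TESA library, against 1.38%. With DESeq2 size factors the count of lower members was 2 (Dync2h1 and Dnah7c, against 1.54% of all genes), and with library totals it was 1 (Dync2h1, against 0.553%). A count of 1 to 3 genes gives no ground for calling the share particular to the members. Summed by role, 3 of 19 roles did not overlap under TMM, the inner arm chains, cytoplasmic dynein 2 and kinesin-8, and 1 of 19, cytoplasmic dynein 2, under library totals. These roles hold Dnah7c, Dync2h1 and Kif19a, the same 3 genes, so the sums are not a further result. No share over sums of other genes was computed to set beside them.

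**Figure D2:**
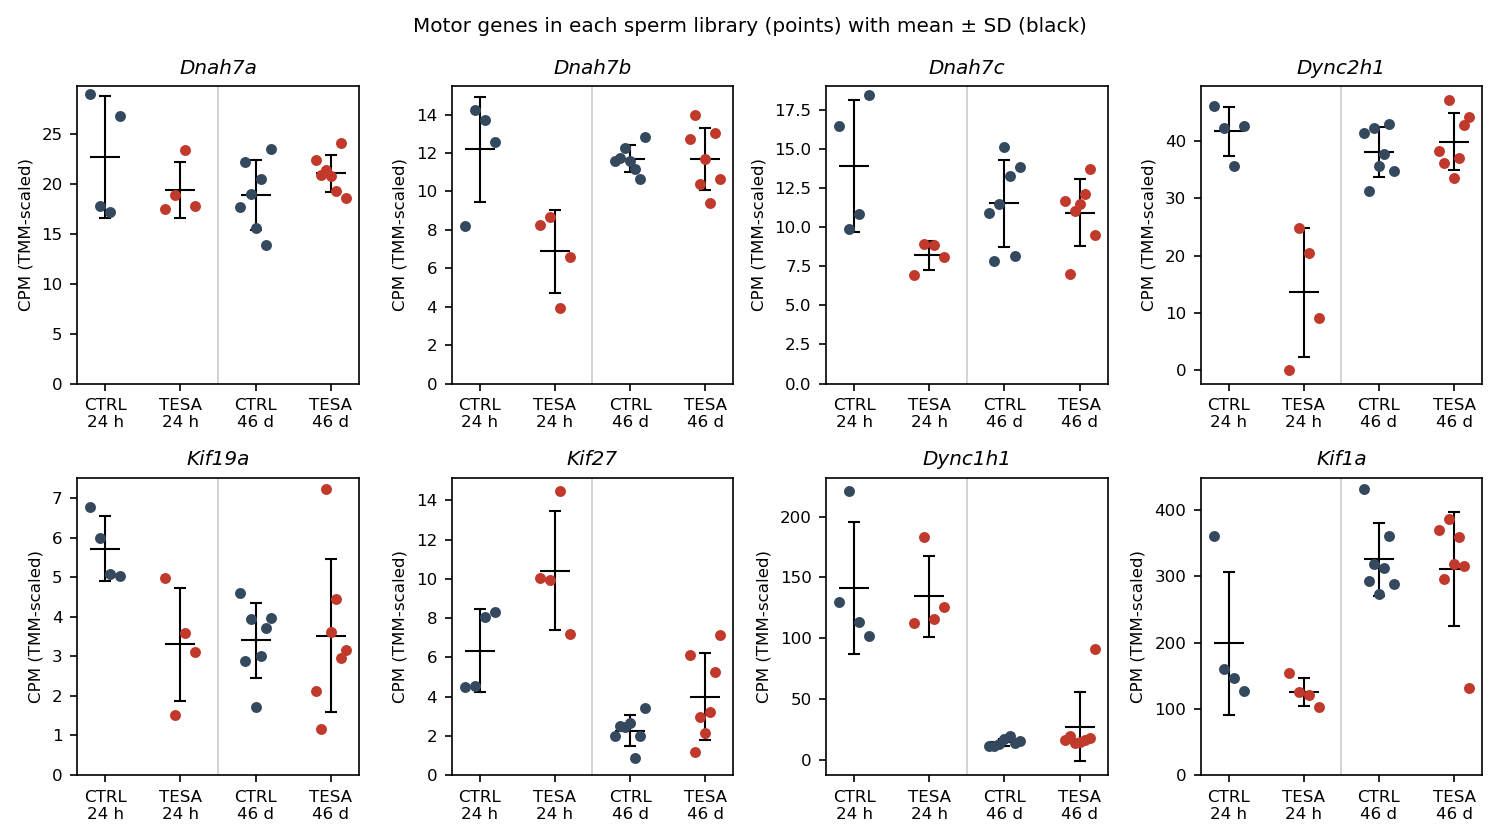
CPM after TMM scaling of 8 motor genes in each library (points), with the mean and SD of each group (black), for CTRL and TESA at 24 h and 46 days, which were scaled separately. Dnah7c, Dync2h1 and Kif19a had no overlap between TESA and CTRL at 24 h and overlapped at 46 days, and a single TESA library at 46 days held 91.3 CPM of Dync1h1 and 131 CPM of Kif1a.

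Cytoplasmic dynein 1 is the general minus-end motor of the cell, and 2 of its 4 tested genes had intervals within a doubling and a halving. Dync1h1, its heavy chain, had 112, 184, 116 and 125 CPM in TESA 1, 3, 5 and 7, and 130, 221, 114 and 102 CPM in CTRL 2, 4, 6 and 8. The high libraries were TESA 3 and CTRL 4, and the fold change was -0.07 (SE 0.30, edgeR unadjusted p = 0.806). Its sign changed under library totals (0.19). The intermediate chain Dync1i2 had a fold change of -0.38 (SE 0.29), with 13.6 to 26.4 CPM in TESA and 22.1 to 31.4 CPM in CTRL, and the light intermediate chains Dync1li1 and Dync1li2 had 0.31 (SE 0.36) and -0.24 (SE 0.26). The light chains shared between dyneins and other complexes had 4 of 7 below 0 and a median of -0.08. Dynll1 and Dynll2, which make near-identical LC8 proteins, had 25.6 to 32.5 and 24.1 to 41.5 CPM in TESA and 17.7 to 39.5 and 20.3 to 40.7 CPM in CTRL. Their fold changes were -0.08 (SE 0.26) and 0.15 (SE 0.27). Dynlt3 had a fold change of -0.37 (SE 0.41). The Dynlt1 copies Dynlt1b and Dynlt1f, whose reads the counting could divide between them, had 0.05 (SE 0.37) and -0.12 (SE 0.72), and their sum with Dynlt1-ps1 had -0.07 (SE 0.34).

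Among kinesins, Kif1a and Kif21b held the most counts of all members, summed over the 24 h libraries. This did not hold in each library, since Dync1h1 was above both in CTRL 4 (221 CPM) and TESA 3 (184 CPM), and Kif5c in TESA 3 (211 CPM). Kif1a, a carrier of vesicles, had 154, 126, 120 and 102 CPM in TESA 1, 3, 5 and 7, and 360, 161, 146 and 127 CPM in CTRL 2, 4, 6 and 8. CTRL 2 stood far above the rest, and the other CTRL libraries overlapped with TESA 1. The fold change was -0.66 (SE 0.34, edgeR unadjusted p = 0.0832), -0.19 (SE 0.23) without CTRL 2, and -0.82 without CTRL 8 (edgeR unadjusted p = 0.0415). Kif21b, a kinesin-4 that limits microtubule growth, had 222, 150, 168 and 129 CPM in TESA and 352, 197, 172 and 170 CPM in CTRL, in the same order of libraries. CTRL 2 was again the highest, and the fold change was -0.41 (SE 0.30), and -0.09 (SE 0.25) without CTRL 2. The ratio of Kif1a to Kif21b counts moved little, from 0.693 to 0.838 in TESA and 0.748 to 1.02 in CTRL.

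By kinesin family, the signs of the fold changes were counted and not tested. All 6 kinesin-3 genes (median -0.28) and all 4 kinesin-13 genes (median -0.53) were below 0, and all 3 kinesin-2 genes were above it (median 0.29). These signs did not hold in every setting, where Kif13b reached 0.22 and Kif2c 0.0017, and Kif3b fell to -0.12 and Kif17 to 0.02. TESA 5 was the highest library for all 3 kinesin-2 genes, with 94.2 CPM of Kif17, 23.5 CPM of Kif3a and 22.6 CPM of Kif3b. Kif2a, a kinesin-13 that shortens microtubules, had 5.80, 4.76, 1.18 and 6.22 CPM in TESA 1, 3, 5 and 7 and 7.60, 9.30, 6.11 and 11.3 CPM in CTRL 2, 4, 6 and 8. CTRL 6 lay just under TESA 7, and the fold change was -0.93 (SE 0.49, edgeR unadjusted p = 0.0885). Kif2c, the most abundant gene of that family, had 59.4 to 108 CPM over all libraries, with a fold change of -0.17 (SE 0.25). Kif17, a kinesin-2 that moves in the developing spermatid and its tail, had 39.7 to 94.2 CPM in TESA and 30.7 to 68.0 CPM in CTRL, with a fold change of 0.29 (SE 0.33). Kif3a, a subunit of the motor that carries cargo into the growing tail, had 10.5, 3.46, 23.5 and 8.49 CPM in TESA and 0.501, 7.93, 6.89 and 7.46 CPM in CTRL. TESA 5 was high and CTRL 2 low, and the fold change was 1.01 (SE 0.75, edgeR unadjusted p = 0.209), or 0.41 without TESA 5 and 0.64 without CTRL 2. Its partner Kif3b had 0.15 (SE 0.30).

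Kif19a, a kinesin-8 that trims the tips of cilia, had 5.00, 1.51, 3.60 and 3.12 CPM in TESA 1, 3, 5 and 7, and 6.77, 5.98, 5.09 and 5.04 CPM in CTRL 2, 4, 6 and 8. The groups did not overlap, but TESA 1 and CTRL 8 were nearly equal. The fold change was -0.79 (SE 0.43, edgeR unadjusted p = 0.0975), and -1.04 without TESA 1 with an edgeR unadjusted p of 0.0494. Kif27, a kinesin-4 of motile cilia, went the other way, with 10.1, 9.95, 14.5 and 7.20 CPM in TESA and 4.51, 4.53, 8.05 and 8.29 CPM in CTRL. TESA 7 lay below CTRL 6 and CTRL 8, and the fold change was 0.71 (SE 0.35, edgeR unadjusted p = 0.0726). Without TESA 7 the edgeR unadjusted p was 0.0467 and the fold change 0.86.

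Of the conventional kinesins, Kif5c had 49.8, 211, 43.1 and 129 CPM in TESA and 63.6, 115, 56.4 and 75.8 CPM in CTRL, with TESA 3 the highest and a fold change of 0.48 (SE 0.49), which was -0.07 (SE 0.42) without TESA 3. Kif5b had 7.59 to 22.7 CPM over all libraries and a fold change of -0.22 (SE 0.36), and Kif13b, a kinesin-3, had 26.3 to 67.9 CPM and -0.23 (SE 0.34). CTRL 4 was the highest library for both genes, and in other settings their fold changes turned above 0, up to 0.14 and 0.22. Kif9, which sits on the central pair of the sperm tail, had 8.12 to 23.1 CPM in TESA and 12.9 to 21.1 CPM in CTRL, with a fold change of -0.16 (SE 0.34). Of kinesins that act in dividing cells, Kif11, Kif20b and Kif18b had 0 to 2.55 CPM, Kif15 had 1.18 to 3.85 CPM and Kif2c the 59.4 to 108 CPM given above, and the dividing cell markers summed to 14.2 CPM or less.

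Counts of 0 occurred at 24 h among the members and among all genes. Of the 62 tested members, 44 had counts in every library (70.97%, against 78.3% of all genes tested), and this difference in share was not tested. The other 18 members had 0 counts in at least 1 library, 31 values in all. For 9 of the 18, Dync2h1, Dnah10, Dnah2, Dnah3, Dnah6, Kif21a, Kif1bp, Dnah17 and Dynlrb1, all other libraries had more than 20 counts, so the 0 stood beside well-counted values. Dynlrb1 had 0 counts in TESA 1 and 260 to 1056 counts elsewhere. Tested members at 0 numbered 10, 5, 6 and 1 in TESA 1, 3, 5 and 7, and 2, 2, 3 and 2 in CTRL 2, 4, 6 and 8. TESA 1, 3 and 5 had more than any CTRL library, and TESA 7 the fewest. Over all genes tested the shares at 0 were 5.43%, 3.43%, 7.88% and 1.87% in TESA and 7.08%, 3.77%, 2.12% and 1.56% in CTRL, in the same order. At 46 days 3 of the 27 tested members had 0 counts in a library, Dnal4 in TESA 12, Dnah3 in TESA 1 and CTRL 10, and Dnah6 in TESA 11.

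At 46 days the members' fold changes lay on both sides of 0. In the same edgeR test, 0 of the 27 members tested had an adjusted p under 0.05 (0% of the 2262 genes tested), and the smallest adjusted p was 0.749. The edgeR exact test, which called 12 genes in all, called 0 members, as did DESeq2 and limma voom. At an unadjusted p under 0.05, 2 members were higher in TESA (4.95% of all genes were higher) and 0 were lower (0.796% of all were lower). The edgeR exact test gave the same 2 members, Dync1h1 and Kif27 (5.57% of all genes were higher and 0.973% lower). DESeq2 counted Kif27 as higher and Kif15 as lower, where 3.89% of all genes were higher and 1.06% lower. With limma voom Kif27 was counted as higher and Kif15 and Dnah6 as lower, where 2.08% of all genes were higher and 3.85% lower. With library totals Dnah6 and Kif24 were counted as lower and 0 members as higher. The excess of higher genes among all genes did not hold in every setting. Without TESA 12, 1.23% were higher and 1.96% lower, and with library totals 0.221% and 1.41%. In libraries 1 to 10 alone 1.57% were higher and 1.43% lower, and limma voom also had fewer higher than lower genes, as given above. The fold change was below 0 for 14 of 27 members (51.9%, against 44.6% of all genes), and the median was -0.01, against 0.03. No member had groups without overlap, and of all genes 0% were lower and 0.0442% higher without overlap. The 95% interval lay within a doubling and a halving for 20 of the 27. Under library totals all 27 were below 0 (median -1.06), and so was the median of all genes (-1.03), so the members did not lie apart from the other genes under either scaling.

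Kif27 had the smallest p of the 46-day members. In TESA its lowest, median and highest values were 1.164, 3.22 and 7.11 CPM, and in CTRL 0.869, 2.43 and 3.42 CPM. TESA 1, 11 and 12 were above all CTRL libraries, and the other 4 TESA libraries overlapped with CTRL. Kif27 had a fold change of 0.87 (SE 0.34, edgeR unadjusted p = 0.0209, adjusted p = 0.749). The p was over 0.05 without TESA 1 (edgeR unadjusted p = 0.0608), and without TESA 2 and 12 together the fold change was 0.77 (edgeR unadjusted p = 0.0272). Under library totals it was -0.20 (edgeR unadjusted p = 0.842), against the median of -1.03 for all genes.

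Dync1h1 rested on 1 library at 46 days. Its lowest, median and highest values were 13.8, 16.1 and 91.3 CPM in TESA and 11.8, 14.2 and 19.4 CPM in CTRL. TESA 12 held 91.3 CPM, and the next highest TESA library held 19.8. The fold change was 0.86 (SE 0.40, edgeR unadjusted p = 0.0478, adjusted p = 0.838), and without TESA 12 it was 0.09 (SE 0.14, edgeR unadjusted p = 0.523). DESeq2 gave 0.12 with all libraries. Leaving out other libraries moved the p as well, to 0.0563 by edgeR without TESA 2 and to between 0.0617 and 0.0885 without CTRL 6, 7, 8, 9, 13 or 14.

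**Figure D3:**
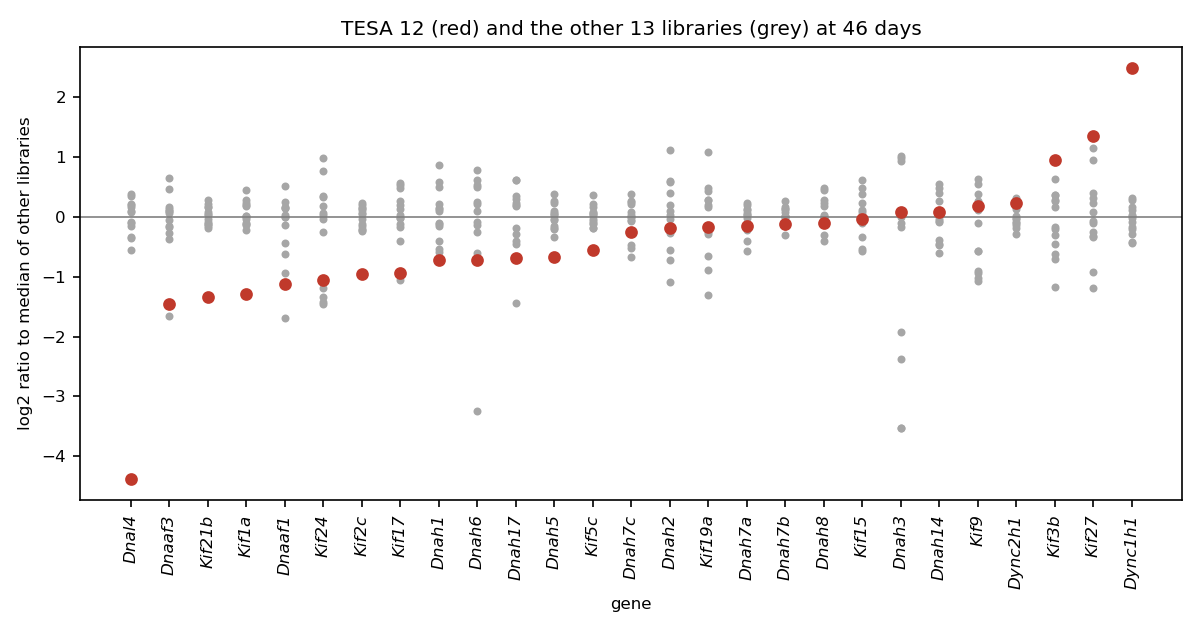
Level of the 27 members tested at 46 days in TESA 12 (red) and in the other 13 libraries (grey), as the log2 ratio to the median of the remaining libraries. TESA 12 was above all other libraries for Dync1h1, Kif3b and Kif27 and below them for Dnal4, Dnah1, Dnah5, Kif1a, Kif2c, Kif5c and Kif21b, with 138 CPM of Kif21b and 131 CPM of Kif1a in TESA 12.

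The same library departed in other members. TESA 12 held 131 CPM of Kif1a and 138 CPM of Kif21b, where the other TESA libraries held at least 296 and 319 CPM. Both genes were low together, and the ratio of their counts in TESA 12, 0.946, lay within the 0.822 to 1.13 of the other libraries. The ratio of Dync1h1 to Kif21b was 0.660 in TESA 12 and 0.0308 to 0.0616 elsewhere. Its late spermatid marker sum of 461 CPM was the lowest but 1 of the 14. It was the lowest library for Uchl1, at 12.3 CPM, for the kinesin light chain and minus-end kinesin genes, at 62.0 CPM, and for the docking and assembly genes, at 6.32 CPM. Kif2c was 29.2 CPM there and 48.3 to 65.4 CPM elsewhere, whereas Dync2h1, at 44.3 CPM, and Dnah7b, at 10.7 CPM, were unremarkable. The cause was not tested.

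Of the genes with the lowest p at 24 h, Kif27 was above 0 at both times, at 0.71 and 0.87. Dnah7b, Dnah7c, Kif1a and Dync2h1 had fold changes near 0 at 46 days. Dnah7b had 9.40, 11.7 and 14.0 CPM as its lowest, median and highest values in TESA and 10.7, 11.6 and 12.8 CPM in CTRL. The groups overlapped, with a fold change of -0.01 (SE 0.12, 95% interval -0.27 to 0.25). Dnah7c had 6.98, 11.5 and 13.7 CPM in TESA and 7.84, 11.5 and 15.2 CPM in CTRL, with -0.04 (SE 0.18), and Dnah7a had 18.6, 21.0 and 24.2 CPM and 13.9, 19.0 and 23.5 CPM, with 0.16 (SE 0.13). Dync2h1 had 33.6, 38.2 and 47.3 CPM in TESA and 31.4, 37.8 and 43.0 CPM in CTRL, and no library was at 0. Its fold change was 0.07 (SE 0.12, 95% interval -0.17 to 0.32). Kif1a, Kif21b and Kif2c had fold changes of -0.06 (SE 0.20), -0.11 (SE 0.19) and -0.01 (SE 0.16). Dnah8, Dnah17 and Dnah5 had -0.04 (SE 0.15), -0.07 (SE 0.26) and 0.04 (SE 0.20), and Kif5c had 0.06 (SE 0.15).

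Among the remaining 46-day members, Kif15, a spindle kinesin, had 2.90, 4.25 and 4.66 CPM in TESA and 2.84, 5.25 and 6.95 CPM in CTRL, overlapping, with a fold change of -0.41 (SE 0.21, edgeR unadjusted p = 0.0737). Kif24, which acts at centrioles, had 0.478, 0.790 and 4.66 CPM in TESA and 0.676, 2.47 and 3.95 CPM in CTRL. TESA 2 was the highest of all 14 libraries, from few counts, and the fold change was -0.90 (SE 0.51, edgeR unadjusted p = 0.0972), or -1.13 without TESA 2 (edgeR unadjusted p = 0.0384). Dnah3 had 0.72 (SE 0.85), Dnah2 -0.34 (SE 0.33), Dnah6 -0.31 (SE 0.63), Dnah14 -0.29 (SE 0.23) and Dnah1 0.19 (SE 0.26). Dnal4, Dnaaf3 and Dnaaf1 had -0.28 (SE 0.41), -0.18 (SE 0.28) and 0.04 (SE 0.31). Kif9 had 0.28 (SE 0.34), Kif3b 0.19 (SE 0.28), Kif19a 0.14 (SE 0.31) and Kif17 0.12 (SE 0.24).

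A single edgeR model over both tables compared the TESA effect at 46 days with that at 24 h, in which time point and library type cannot be told apart. Of 2141 genes tested, 0 passed an adjusted p of 0.05 (0%), and among them 0 of 27 members, with a smallest adjusted p of 0.341 by edgeR. At an unadjusted p under 0.05 there were 4 members, against 9.72% of all genes. These were Dnah7b (difference 0.82, SE 0.29, edgeR unadjusted p = 0.00970), Dnah5 (1.11, SE 0.43, edgeR unadjusted p = 0.0166), Dnah7c (0.71, SE 0.32, edgeR unadjusted p = 0.0345) and Dync2h1 (1.69, SE 0.79, edgeR unadjusted p = 0.0446). In all 4 the fold change was higher at 46 days than at 24 h. With 1 of the 22 libraries left out the count ran from 2 to 5, while 155 to 251 of all genes were counted. With library totals it was 0, and 12 of the 2141 genes were counted. Dnah5 and Dnah7b were counted in every omission. Dync2h1 was counted only without the 46-day TESA 12 or the 24 h TESA 1, 3 or 5. Without the 24 h library TESA 1, the smallest adjusted p of a member was 0.0621 by edgeR, and 11 genes that are not members passed. Over the 27 members tested in both tables, 21 were below 0 at 24 h and 14 at 46 days, 13 in both, 5 were above 0 in both and 9 had opposite signs.

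Levels between genes were not compared per length here, so the order of the members by CPM also carries transcript length. Kif1a and Kif21b together took 19.97% to 42.2% of the members' counts at 24 h (median 24.3%) and 44.8% to 72.4% at 46 days (median 67.4%). The first share is of 67 members and the second of 29. Over the 29 members found at both times, the 24 h share was 26.3% to 50.2% (median 32.5%). The tables were normalized separately and come from different RNA fractions, so levels set across them are descriptions. The CTRL mean of Dync1h1 was 142 CPM at 24 h and 14.7 CPM at 46 days, a ratio of 9.60, and the ratios of Kif5c and Kif9 were 7.51 and 5.62. At the other end were Dnah5 (0.479), Kif15 (0.482), Kif1a (0.610) and Kif21b (0.640). Dnah7b, Dnah8 and Dync2h1 stood at 1.04, 1.06 and 1.10. The spread within CTRL, as a coefficient of variation, had a median over members of 37.0% at 24 h and 26.3% at 46 days, and was least for Dnah7b at 46 days, at 6.01%.

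Partner genes of the motors gave no call in either table, with 0 genes at an edgeR unadjusted p under 0.05 in any list. At 24 h, 27 of 28 dynactin and adaptor genes were tested, with 12 below 0 and a summed level of 440 ± 14.5 CPM in TESA and 438 ± 31.6 CPM in CTRL (mean ± SD, n = 4 each). Of 11 kinesin light chain and minus-end kinesin genes, 7 were tested and 5 were below 0. Of 37 genes for docking and assembly of axonemal dyneins, 23 were tested and 13 were below 0, with a median of -0.14 and a summed level of 115 ± 19.1 CPM in TESA and 123 ± 22.9 CPM in CTRL (n = 4 each). At 46 days 6, 5 and 4 genes of these lists were tested, with 2, 2 and 3 below 0.

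The promoters of the members were searched for sequences bound by factors of ciliary and spermatid genes. RefSeq promoters of 250 bases before to 50 after the annotated start (build GRCm38.p6) were matched to 53 of the 67 members, 59 promoters in all, and both strands were read. GTTGCC, a part of the site of the RFX factors that regulate ciliary genes, was in 20 of the 59 (33.9%) and in 12.5% of all 32851 promoters. The inverted repeat of RFX sites, GTTGC followed after any 3 bases by GCAAC, searched after the Dnah7 promoters had been seen, was in 6 of the 59 (10.2%) and in 0.225% of all. The 6 include the 3 related Dnah7 copies themselves, so these shares are not an even comparison. TGACGTCA, the cAMP response element, was in 3 (5.08% against 1.79%), and its part TGACG, which also matches within it, in 20 (33.9% against 20.8%). A direct repeat of the kind PPAR binds, AGGTCA given 2 times with any 1 base between, was in 0 of the 59 and in 0.0396% of all. Since only 13 of all promoters held this exact form, its absence from 59 cannot show whether the members lack PPAR sites. A match is a description of letters and says nothing of binding in these mice.

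The members with the inverted repeat included all 3 copies of Dnah7, the genes with the smallest p at 24 h or their relative, so the 30 bases around the repeat are shown for these copies, Dynlrb2 and Kif17, 5′ to 3′ on the gene's strand with the repeat in capitals. They lie at chr1:53706820-53706849 (minus strand, Dnah7a), chr1:46066821-46066850 (plus, Dnah7b), chr1:46425441-46425470 (plus, Dnah7c), chr8:116504956-116504985 (plus, Dynlrb2) and chr4:138262170-138262199 (plus, Kif17), and the repeat ends 11 to 60 bases before the transcript start of the promoter table. For the Dnah7 copies that start lies inside the span of the gene given above.
Dnah7a: gccagtttGTTGCTTAGCAACgaatcgacc
Dnah7b: gccagtttGTTGCTTAGCAACgaatcgacc
Dnah7c: tccagtttGTTGCTTAGCAACgaatcgacc
Dynlrb2: cctgcctgGTTGCCTAGCAACgggggaagc
Kif17: tcacggagGTTGCCCAGCAACggcgaacgc
The 3 Dnah7 promoters also each held GTTGCC once, 157 to 213 bases before the same transcript start, shown in capitals at chr1:53706967-53706996 (Dnah7a), chr1:46066678-46066707 (Dnah7b) and chr1:46425287-46425316 (Dnah7c).
Dnah7a: tcgctcctcacaGTTGCCtgccaccctctg
Dnah7b: tacaggagcacaGTTGCCacccacccttaa
Dnah7c: tcactcctcagaGTTGCCttccaccctctg
At the shift that gave the most matching bases without gaps, the 300-base promoters of the 3 copies overlapped by 255 to 288 bases and were 65.3% to 68.5% identical there, with longest shared runs of 29 to 33 bases.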

How the data were processed

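The deposited values were estimated counts made by the authors with Salmon 0.11.2 after trimming with Trim Galore 1.16 (build GRCm38), over genes, piRNA precursors and repeat families. The tables held features that had passed a filter. For testing, the paper considered only features above 20 reads in a set share of the smallest group's sample number. Whether that rule also cut the deposited tables was not tested. Counts were rounded to whole numbers, scaled by TMM over all features of a table, and kept where more than 20 counts were found in at least 4 (24 h) or 6 (46 days) libraries. Each table was fitted alone with edgeR 4.0.16 (R 4.3.3), quasi-likelihood test, two-sided, with Benjamini-Hochberg adjustment over mRNAs and long noncoding RNAs, and a further model tested the difference between the time points. Standard errors are the log2 fold change over the root of F. The edgeR exact test, DESeq2 1.42.0, limma 3.58.1 (voom with quality weights), other scalings, no count filter and leaving out libraries were tried. The code was tested on simulated data. Files were read with pandas 2.3.3 and the R package data.table (version 1.17.8) under Python 3.11.15, and figures drawn with matplotlib 3.10.9.

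The members and lists were chosen with earlier results of these data known. Named were members with an unadjusted p under 0.05 in either table, the 2 most abundant members and the member with the smallest p at 24 h in each role with 3 or more tested members, all members tested at 46 days, members whose groups did not overlap at 24 h and the Dynlt1 copies. Members named for counts of 0, for shared high libraries, for a promoter sequence or as low genes of a small role were chosen after their values were seen. Kif1bp was put in a role of its own by its symbol. Levels per coding length were planned and were not computed, since no protein lengths were used here. All 38 members named by the rule matched RefSeq by symbol, which gave the coordinates. A further promoter stretch is not reported here.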

Additional observations from a re-analysis of the deposited data

Results flagged for a closer look

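In 9 of 130 groups of libraries, the highest or lowest library stood far from the others of its group, measured by its gap to the nearest against the whole range (Dixon's ratio). Chance flags about 1 in 20 groups, which is 6.5 of 130. The 38 members named by rule were examined at 24 h and the 27 tested at 46 days, and the causes were not tested.

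At 24 h, CTRL 2 accounted for 3. It held 360 CPM of Kif1a (other CTRL 127 to 161) and 352 CPM of Kif21b (other CTRL 170 to 197), and 0.501 CPM of Kif3a (other CTRL 6.89 to 7.93). Kif13b, a kinesin-3, was high at 45.9 CPM in TESA 3 (other TESA 26.3 to 29.6) and at 67.9 CPM in CTRL 4 (other CTRL 27.5 to 29.3). These were the libraries with the lowest late spermatid marker sums.

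At 46 days, TESA 12 accounted for 3, with 91.3 CPM of Dync1h1 (other TESA 13.8 to 19.8), 131 CPM of Kif1a (other TESA 296 to 386) and 138 CPM of Kif21b (other TESA 319 to 414). Kif24 was high at 4.66 CPM in TESA 2 (other TESA 0.478 to 2.23), the library with the fewest counts.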

How the results depend on the processing

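In every setting tried 0 members passed the adjusted threshold at 24 h, at 46 days or in the difference between them. At 24 h, 2 members had an unadjusted p under 0.05. The count was 0 with library totals, 4 with limma voom, 1 with the near-identical copies summed and 1 to 3 with a library left out. The median of -0.23 turned to 0.0252 with library totals and ran from -0.31 to -0.14 with a library left out, and 41 to 48 members were below 0. Leaving out a library also changed the number tested, and the share below 0 ran from 62.1% to 76.2%, against 75.8% with all libraries. The count of 3 members without overlap was 1 with library totals. At 46 days the median of -0.01 was 0.0112 with DESeq2, 0.00614 with DESeq2 size factors, 0.0359 with no filter, 0.0403 with limma voom, 0.0570 in libraries 1 to 10 alone, 0.0424 without TESA 2 and 12, and -0.0313 to 0.0439 with a library left out. It was -1.06 with library totals, where Dync1h1 (-0.77) and Kif27 (-0.20) also turned. The 2 members with p under 0.05 at 46 days were 1 with TMM over the tested genes, 1 with a term for libraries 11 to 14, 0 in libraries 1 to 10 alone and 1 to 3 with a library left out. With library totals the count was also 2, but of other members, both lower (Dnah6 and Kif24). The cause was not tested. No paired analysis was possible because TESA and CTRL of a comparison share no replicate number. A named member with p over 0.05 and overlapping groups was judged by its size of movement, not by sign. Signs changed in 46 of 605 values at 24 h (15 of 38 members) and in 66 of 648 at 46 days (23 of 27). The summed copies, the count ratios, the inverted repeat and the joint omission of TESA 2 and 12 were chosen after seeing the data, and 5 motifs were searched. Few counts in TESA 2 and TESA 12 limit the 46-day values, and counts of 0 limit those at 24 h.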
